A study of Rattus norvegicus with 6 samples.

Results

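The genes described here are 61 genes of the lysosome: acid hydrolases, lysosomal membrane proteins and the vacuolar proton pump (V-ATPase). They were chosen by name, as 41 listed symbols and the 20 symbols that begin with Atp6v, out of 23091 genes in the table. The rule picks genes by symbol and not by expression value, but the list was drawn up with earlier results of these data known. The lysosome is the acidic compartment in which a cell breaks down proteins, glycans, lipids and nucleic acids delivered by endocytosis and autophagy. The V-ATPase pumps protons into it from the cytosol: the V0 sector lies in the membrane and carries the protons, and the V1 sector on the cytosolic face hydrolyses ATP. Many lysosomal genes carry the CLEAR element, a promoter motif with the core CACGTG that is bound by the MiT/TFE factors (TFEB, TFE3, MITF and TFEC). In marrow, lysosomal proteases and the pump are best known from osteoclasts, and inherited loss of many of these enzymes causes storage disease of neurons.

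The cells were rat mesenchymal stem cells from bone marrow, labelled wild type. All 6 samples spent 7 days in medium for neural differentiation. The control group (CK, n = 3) received DMSO, the usual solvent of small molecules, and the treated group (CYSP, n = 3) received CYSP, a name that the labels do not spell out. The question of the series was which genes change when CYSP is used to drive such cells toward neurons. The labels do not say whether the 3 samples of a group came from separate cultures or animals, so the p-values speak only of the spread among these 6 samples, and that spread may be technical.

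Poly(A) RNA was sequenced to 15060933 to 17244700 gene counts per sample, so that 3 counts correspond to 0.169 to 0.205 CPM (counts scaled to a common library size). Of 12623 genes tested, 76.1% passed an adjusted p of 0.05 (edgeR's quasi-likelihood test, Benjamini-Hochberg), 38.2% higher and 37.8% lower in CYSP. All 11 marrow stromal markers had counts in every group, with 6 higher, 4 lower and 1 that did not pass, and their summed level was 70252 to 72483 CPM in CK and 18339 to 19527 CPM in CYSP. The collagen genes Col1a1 and Col1a2, both lower, held most of that sum, with means of 40665 and 25781 CPM in CK. Of 10 neuronal markers 4 were tested, 2 higher (Tubb3 and Snap25) and 2 lower (Map2 and Dcx). The summed level of the 10 was 14.3 to 14.95 CPM in CK and 87.2 to 92.1 CPM in CYSP. The log2 fold changes of the 4 ran from -4.44 to 10.8, and 6 markers had too few counts to be tested. The rise of the sum is therefore no rise of the list as a whole. Rbfox3 and Elavl4 were at 0 in all 6 samples, Stmn2 in CK and Nefl in CYSP. Of 17 macrophage and leukocyte markers, 13 were lower, 1 (Mrc1) was higher and 3 did not pass; none was at 0, and their summed level was 1940 to 2192 CPM in CK and 707 to 712 CPM in CYSP. The part of these marker changes in the lysosomal results was not tested.

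Most lysosomal genes were higher after CYSP. Of the 61 genes, 56 had enough counts to be tested. Among them 46 (82.1%) were higher, against 38.2% of all tested genes, 7 (12.5%) were lower, against 37.8%, and 3 did not pass. Most of the rises were under 2-fold: 16 (28.6%) rose at least 2-fold, against 15.2% of all tested genes, and 3 (5.36%) fell at least 2-fold, against 12.7%. The median log2 fold change was 0.63 for the lysosomal genes and 0.00 for all tested genes. In 46 genes every CYSP sample lay above every CK sample, against 38.8% of all tested genes, and in 7 every one lay below, against 38.2%; over both directions such separation held for 77% of all tested genes.

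**Figure D1:**
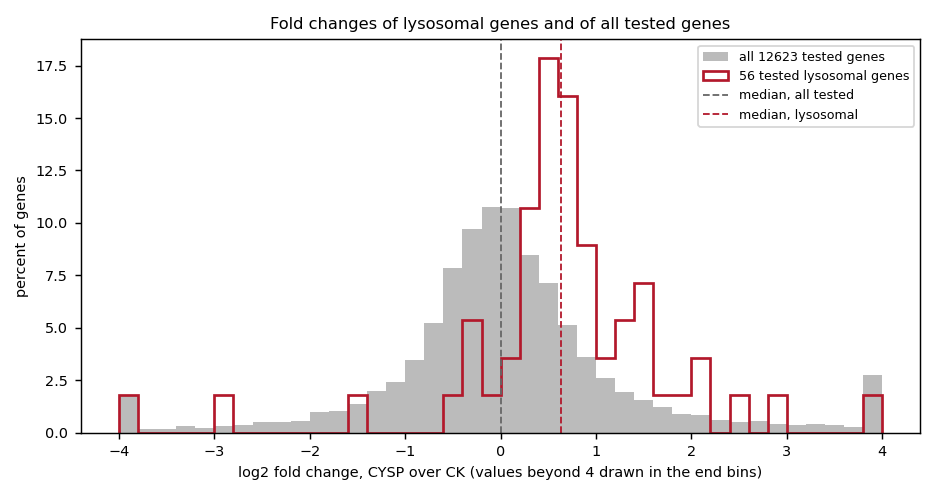
Percent of genes (y axis) by log2 fold change of CYSP over CK (x axis) for all 12623 tested genes (grey) and the 56 tested lysosomal genes (red line), with dashed medians. The lysosomal median lies at 0.63 and that of all tested genes at 0.00.

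The lysosomal share of all counts was 0.792, 0.804 and 0.816% in the 3 CK samples and 1.305, 1.298 and 1.303% in the 3 CYSP samples. The CYSP samples differed from each other by far less than from any CK sample. In FPKM, the authors' measure scaled by transcript length and depth, the summed level of the 61 genes was 4088 ± 65.3 in CK and 6422 ± 14.4 in CYSP (SD, n = 3 each). The cathepsin genes Ctsb, Ctsl and Ctsc together made up 34.9% of that net rise. By role, the ratio of the summed FPKM in CYSP to that in CK was 1.67 for proteases, 1.67 for glycosidases and sulfatases, 1.29 for lipid handling, 1.47 for membrane proteins, 1.64 for V0 and 2.01 for V1. The FPKM of all genes together was also higher in CYSP, at 464890 to 468130 against 395000 to 399290 in CK. As a share of it, the 61 genes made up 1.02, 1.03 and 1.04% in CK and 1.38, 1.38 and 1.37% in CYSP. The sums and ratios above are not corrected for this.

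**Figure D2:**
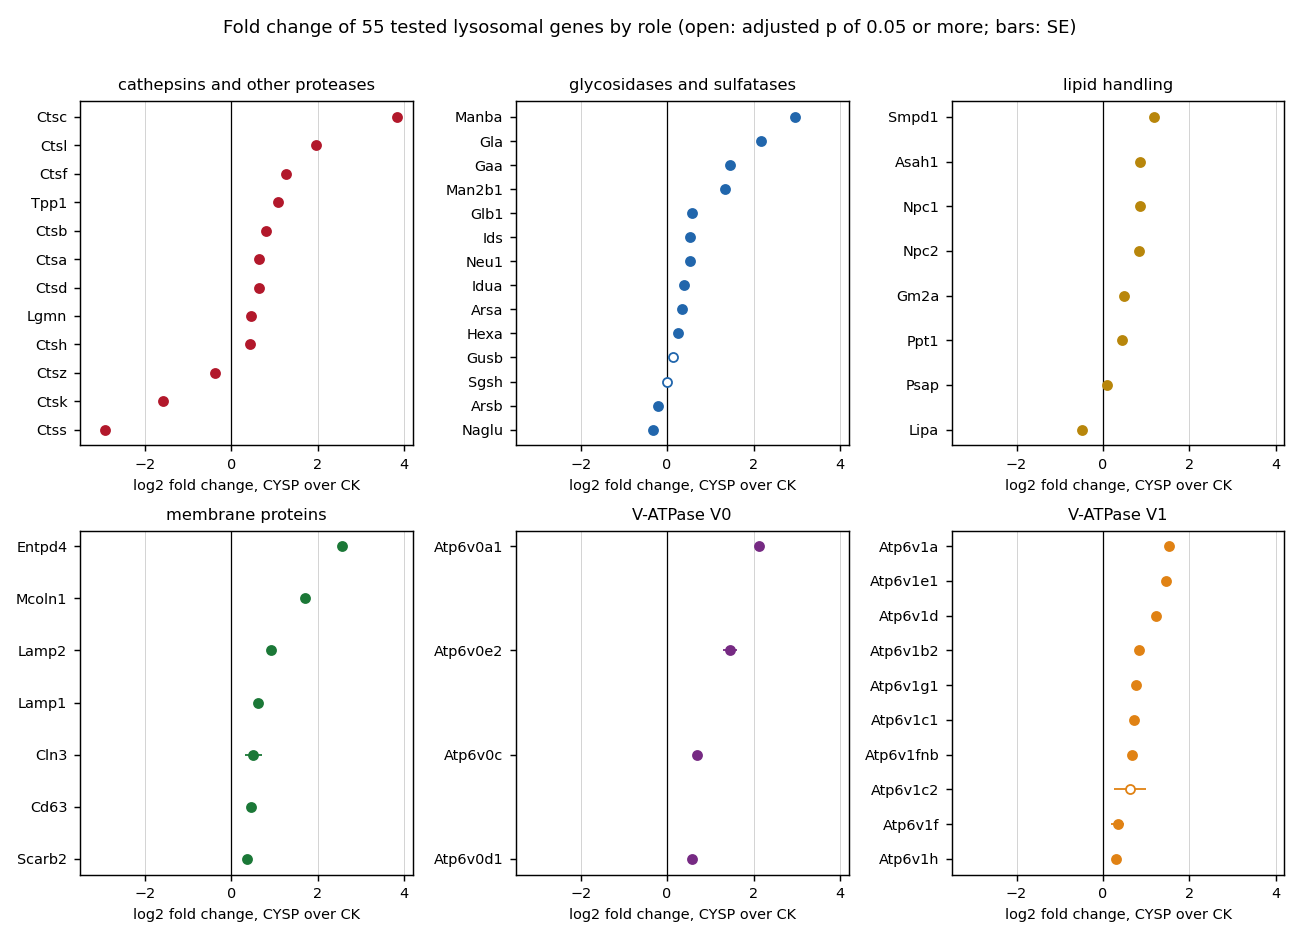
log2 fold change of CYSP over CK (x axis) for the tested lysosomal genes by role, with SE bars; open points had an adjusted p of 0.05 or more, and Atp6v0d2, with no count in CYSP, is left out. Points to the right of 0 outnumber those to the left in every role, and the points farthest from 0 are Ctsc on the right and Ctss on the left.

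Promoter sequences are shown because lysosomal genes are known for the CACGTG core and because most of these genes moved together. RefSeq promoters (build GRCr8, 250 bases before and 50 after the gene start) were matched by symbol for 47 of the 61 genes. CACGTG was searched as written, which reads the same on both strands, and TCACGTG, which contains it, on both strands. Of the 47 promoters 11 (23.4%) held CACGTG, against 6.65% of all 27457 promoters in the table and 9.60% of the 9664 promoters of tested genes. TCACGTG was in 9 (19.1%), against 3.43% of all promoters and 5.69% of those of tested genes. In the 42 of the 47 promoters whose genes were tested, the shares were 26.2% for CACGTG and 21.4% for TCACGTG. Among 58 promoters of tested genes of the KEGG Lysosome term outside the list, 13.8% held CACGTG and 12.1% held TCACGTG. The core was in the window of 10 of 34 genes that were higher, in 0 of 5 that were lower, and in 1 of 3 that did not pass (Sgsh). With only 5 promoters of genes that were lower, these shares cannot be told apart. It was found in 4 of 6 promoters of membrane proteins (Lamp1, Mcoln1, Cln3 and Cd63), 4 of 11 of glycosidases and sulfatases (Gaa, Glb1, Idua and Sgsh), 2 of 11 of proteases (Ctsd and Ctsf), 1 of 4 of V0 (Atp6v0d1), 0 of 10 of V1 and 0 of 5 of lipid handling. Across all tested genes the share with the core was 9.78% among those higher and 9.44% among those lower. A match describes letters in a window and is no evidence of binding, and a window without one says only that these letters are not in it.

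The 250 bases before the gene start are given below for 6 genes, 5′ to 3′ on the gene's strand, with each CACGTG in capitals. Lamp1 (chr16:83075064-83075313, minus strand) has 5 cores, the highest number among the 47. Mcoln1 (chr12:6358008-6358257, plus strand) and Gaa (chr10:105028105-105028354, plus strand) rose and have 1 each here; Mcoln1 has a further core just after its start, outside the stretch shown. Ctsc (chr1:151440799-151441048, plus strand) and Ctsl (chr17:769854-770103, plus strand), the proteases with the largest rises, and Ctss (chr2:185775146-185775395, plus strand), the protease with the largest fall, have 0.
Lamp1: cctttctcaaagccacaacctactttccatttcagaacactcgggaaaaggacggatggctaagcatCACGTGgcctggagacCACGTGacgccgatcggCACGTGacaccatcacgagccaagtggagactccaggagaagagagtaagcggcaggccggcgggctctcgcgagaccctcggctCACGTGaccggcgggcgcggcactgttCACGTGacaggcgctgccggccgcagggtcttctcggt
Mcoln1: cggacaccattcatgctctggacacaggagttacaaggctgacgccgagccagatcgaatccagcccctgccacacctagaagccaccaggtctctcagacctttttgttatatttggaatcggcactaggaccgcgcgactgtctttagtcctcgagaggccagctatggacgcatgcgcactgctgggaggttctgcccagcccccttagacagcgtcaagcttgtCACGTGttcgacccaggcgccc
Gaa: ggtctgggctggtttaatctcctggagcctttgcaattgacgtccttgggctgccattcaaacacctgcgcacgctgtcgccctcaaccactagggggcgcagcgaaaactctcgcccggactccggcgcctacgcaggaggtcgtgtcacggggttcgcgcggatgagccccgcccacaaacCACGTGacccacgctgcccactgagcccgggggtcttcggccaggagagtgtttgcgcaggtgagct
Ctsc: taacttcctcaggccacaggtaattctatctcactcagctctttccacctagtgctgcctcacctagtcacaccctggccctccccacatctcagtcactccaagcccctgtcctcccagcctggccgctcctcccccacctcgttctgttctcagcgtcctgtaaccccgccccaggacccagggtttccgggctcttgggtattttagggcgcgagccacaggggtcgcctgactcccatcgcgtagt
Ctsl: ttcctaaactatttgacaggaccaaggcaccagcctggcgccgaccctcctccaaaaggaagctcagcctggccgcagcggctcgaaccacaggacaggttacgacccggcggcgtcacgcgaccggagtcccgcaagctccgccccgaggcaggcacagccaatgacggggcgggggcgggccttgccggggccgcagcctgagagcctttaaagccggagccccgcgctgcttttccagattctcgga
Ctss: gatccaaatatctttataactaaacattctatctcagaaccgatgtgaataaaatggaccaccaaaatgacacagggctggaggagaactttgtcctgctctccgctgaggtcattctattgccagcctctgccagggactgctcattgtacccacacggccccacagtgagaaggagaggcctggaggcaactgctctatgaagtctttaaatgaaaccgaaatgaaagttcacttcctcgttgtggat

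Among the 12 proteases 9 were higher (75%, against 38.2% of all tested genes) and 3 were lower (25%, against 37.8%). Their median log2 fold change was 0.65. Ctsc encodes cathepsin C, the dipeptidyl peptidase that activates granule serine proteases. Its level was 25.3, 30.1 and 30.7 CPM in CK and 411, 412 and 410 CPM in CYSP. The 3 treated samples were alike and far above the controls, a 14.3-fold rise (log2 fold change 3.84, SE 0.0452, edgeR adjusted p = 6.18e-70), the largest among the 56 genes tested. Ctsl, cathepsin L, a major cysteine endopeptidase, stood at 212, 239 and 237 CPM in CK and 892, 880 and 917 CPM in CYSP. Groups did not overlap (3.91-fold, SE of log2 0.0332, edgeR adjusted p = 2.37e-41). Ctsf, the cysteine protease cathepsin F, went from 55.9, 53.4 and 53.5 CPM to 135, 132 and 127 CPM, and every treated sample was above every control (2.43-fold, SE of log2 0.0476, edgeR adjusted p = 7.98e-39).

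Ctsb, cathepsin B, was the lysosomal gene with the highest FPKM in both groups, at 541 ± 9.61 in CK and 886 ± 8.87 in CYSP (SD, n = 3 each). Its CPM were 960, 973 and 994 in CK and 1717, 1693 and 1674 in CYSP (log2 fold change 0.80, SE 0.0244, edgeR adjusted p = 1.92e-44), with no overlap. In the order of mean FPKM among the 61 genes, Ctsl went from rank 11 to 4 and Ctsc from rank 44 to 11. Ctsd, the aspartic protease cathepsin D, rose by a log2 fold change of 0.64, and Ctsa, the carboxypeptidase that also protects beta-galactosidase and neuraminidase, by 0.65. Tpp1, the tripeptidyl peptidase lost in a childhood neuronal ceroid lipofuscinosis, rose by 1.09, Lgmn, the asparaginyl endopeptidase that cuts cathepsins to their mature chains, by 0.45, and the aminopeptidase Ctsh by 0.44.

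The 3 proteases that fell were Ctss, Ctsk and Ctsz. Ctss, cathepsin S, which trims the invariant chain in antigen-presenting cells, was at 45.8, 49.7 and 44.4 CPM in CK and 5.22, 7.77 and 5.53 CPM in CYSP. All treated samples were low, 7.57-fold below the controls (log2 fold change -2.92, SE 0.101, edgeR adjusted p = 7.22e-40). Ctsk, cathepsin K, the collagen-degrading protease best known from osteoclasts, was at 120, 114 and 124 CPM in CK and at 43.0, 38.0 and 39.4 CPM in CYSP. This was a 2.97-fold fall without overlap (log2 fold change -1.57, SE 0.0527, edgeR adjusted p = 9.39e-42). Ctsz, the carboxypeptidase cathepsin Z, was at 97.4, 99.2 and 94.5 CPM against 68.3, 75.5 and 81.9 CPM, a smaller fall, also without overlap (log2 fold change -0.37, SE 0.0504, edgeR adjusted p = 9.21e-10). In RefSeq (GRCr8), Ctsk and Ctss lie on either side of the same coding gene.

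Of the 17 macrophage and leukocyte markers given above, 13 (76.5%) were lower like these 3 genes, 1 (Mrc1) was higher and 3 did not pass. Of 9 osteoclast markers 7 were tested, 5 of them (71.4%) lower and 1 (Mmp9) higher. By comparison, 37.8% of all tested genes were lower and 38.2% were higher. The summed level of the osteoclast markers was 92.2 to 96.2 CPM in CK and 448 to 475 CPM in CYSP. Mmp9 alone gave a mean of 434 CPM of the sum in CYSP. Calcr, the calcitonin receptor, was at 0 in all samples, and Ocstamp and Tnfrsf11a were at 0 in CYSP. The part of these cells in the results was not tested. In bulk RNA, fewer cells of a type and less RNA per cell cannot be told apart.

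**Figure D3:**
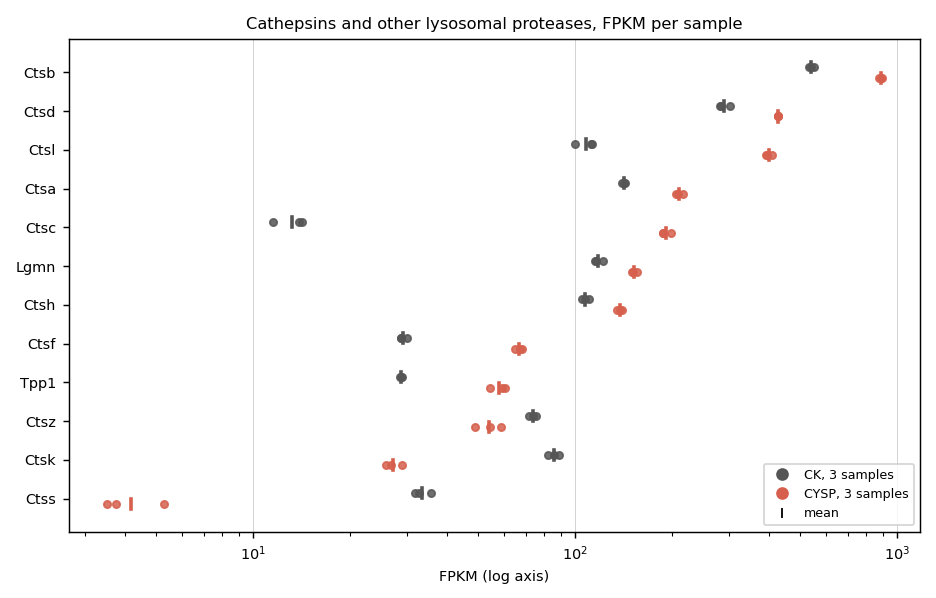
FPKM per sample (x axis, log scale) of the 12 proteases, with CK in grey, CYSP in red and a bar at each group's mean. Ctsc and Ctsl moved far to the right in CYSP, Ctss and Ctsk to the left, and the spread within a group was small beside these shifts.

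The 14 glycosidases and sulfatases, which take sugars and sulfates off glycans stepwise, held 10 higher, 2 lower and 2 that did not pass. That is 71.4% higher and 14.3% lower, against 38.2% and 37.8% of all tested genes. The median log2 fold change was 0.46. Manba, beta-mannosidase, was at 11.1, 13.3 and 13.8 CPM in CK and 100, 97.8 and 98.7 CPM in CYSP. It was low in all controls and 7.78-fold higher in CYSP (log2 fold change 2.96, SE 0.0682, edgeR adjusted p = 6.38e-53). Gla, alpha-galactosidase A, the enzyme of Fabry disease, was at 20.9, 22.8 and 24.6 CPM against 105, 107 and 98.5 CPM, with no overlap (4.54-fold, SE of log2 0.0607, edgeR adjusted p = 2.73e-47). Gaa, acid alpha-glucosidase, which degrades glycogen, was at 110, 110 and 111 CPM in CK and 302, 292 and 318 CPM in CYSP. Every treated sample was above the controls (2.75-fold, SE of log2 0.0371, edgeR adjusted p = 5.89e-50), and Gaa had the highest mean FPKM of this role over the 6 samples.

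Man2b1, lysosomal alpha-mannosidase, rose by a log2 fold change of 1.35 (edgeR adjusted p = 3.46e-46). The other risers of this role moved by 0.26 to 0.58: the hexosaminidase alpha chain Hexa, beta-galactosidase Glb1, sialidase Neu1, the sulfatases Ids and Arsa, and alpha-iduronidase Idua. The falls were small. Naglu, which removes N-acetylglucosamine from heparan sulfate, was at 33.4, 31.5 and 32.4 CPM in CK and 26.4, 26.3 and 25.2 CPM in CYSP, without overlap (log2 fold change -0.32, SE 0.0763, edgeR adjusted p = 1.27e-04). In RefSeq it is the next coding gene to Atp6v0a1, which rose. Arsb, arylsulfatase B, was at 52.2, 47.7 and 56.2 CPM against 46.6, 43.7 and 44.2 CPM, with groups apart by little (log2 fold change -0.21, SE 0.0622, edgeR adjusted p = 0.00152). Sgsh, heparan N-sulfatase, was at 18.7, 20.5 and 19.4 CPM and at 19.9, 18.2 and 20.1 CPM, and its groups overlapped (log2 fold change -0.01, SE 0.0934, edgeR adjusted p = 0.938). Gusb, beta-glucuronidase, was at 30.5, 31.6 and 30.7 CPM and at 31.9, 38.0 and 31.9 CPM; the groups did not overlap, but it did not pass (edgeR adjusted p = 0.103).

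Of the 8 lipid-handling genes 7 were higher (87.5%, against 38.2% of all tested genes) and 1 was lower (12.5%, against 37.8%). The median log2 fold change was 0.67. Smpd1, acid sphingomyelinase, which makes ceramide from sphingomyelin, was at 92.9, 87.1 and 94.0 CPM in CK and 211, 200 and 211 CPM in CYSP. The groups were well apart (2.27-fold, SE of log2 0.0406, edgeR adjusted p = 3.94e-41). Asah1, acid ceramidase, the next enzyme of that chain, was at 155, 152 and 157 CPM against 274, 281 and 284 CPM, again without overlap (log2 fold change 0.86, SE 0.035, edgeR adjusted p = 3.6e-36). The cholesterol exporters of the lysosome moved alike in size. Npc1, the membrane transporter, was at 57.0, 61.6 and 56.5 CPM and at 103, 108 and 104 CPM, with every treated sample higher (log2 fold change 0.85, SE 0.0495, edgeR adjusted p = 1.46e-26). Npc2, the soluble carrier that hands cholesterol to it, rose by 0.84 on the log2 scale.

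Lipa, the acid lipase that frees cholesterol from its esters, went the other way. It was at 76.2, 73.5 and 82.3 CPM in CK and 55.5, 56.5 and 53.9 CPM in CYSP, lower in every treated sample (log2 fold change -0.48, SE 0.0539, edgeR adjusted p = 6.04e-13). Psap, the precursor of the saposins, which present lipids to hydrolases, was the lipid gene with the highest FPKM. Its CPM were 946, 980 and 977 in CK and 1066, 1008 and 1033 in CYSP, close but not overlapping (log2 fold change 0.10, SE 0.0258, edgeR adjusted p = 4.77e-04). With scaling by library size alone its log2 fold change was 0.02 and it no longer passed (edgeR adjusted p = 0.594), nor did it on log2(FPKM + 1) (limma adjusted p = 0.629). Gm2a, the activator that lifts GM2 ganglioside to its hydrolase, and Ppt1, the thioesterase that removes palmitate from proteins, rose by log2 fold changes of 0.50 and 0.45.

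All 7 membrane proteins were called higher, against 38.2% of all tested genes, with a median log2 fold change of 0.62. Entpd4, a nucleoside diphosphatase of Golgi and lysosomal membranes, was at 13.5, 15.1 and 13.4 CPM in CK and 84.6, 83.1 and 80.2 CPM in CYSP. It had the largest rise of this role, with no overlap (5.91-fold, SE of log2 0.0689, edgeR adjusted p = 2.79e-48). Mcoln1, the calcium channel TRPML1, was at 18.5, 18.9 and 20.8 CPM against 61.3, 67.2 and 62.3 CPM, higher in every treated sample (3.28-fold, SE of log2 0.0697, edgeR adjusted p = 2.92e-36). The structural glycoprotein Lamp2, which also serves chaperone-mediated autophagy, was at 309, 300 and 305 CPM and at 582, 568 and 570 CPM. Its groups were tight and apart (log2 fold change 0.91, SE 0.0295, edgeR adjusted p = 6.49e-43).

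Lamp1, whose promoter holds the 5 cores printed above, was at 528, 518 and 535 CPM in CK and 806, 802 and 815 CPM in CYSP (log2 fold change 0.62, SE 0.027, edgeR adjusted p = 3.72e-34), also without overlap. This log2 fold change was the median of its role. Whether the number of cores goes with the size of a change was not tested. Cd63, a tetraspanin of late endosomes and exosomes, had the highest FPKM of the membrane proteins. It was at 372, 382 and 387 CPM against 529, 521 and 523 CPM, without overlap (log2 fold change 0.46, SE 0.0291, edgeR adjusted p = 7.5e-25). Scarb2, the receptor that carries glucocerebrosidase to lysosomes, rose by 0.38 on the log2 scale. Cln3, the gene of juvenile neuronal ceroid lipofuscinosis, was at 3.95, 3.20 and 4.53 CPM and at 6.56, 5.61 and 4.44 CPM. Its groups overlapped (log2 fold change 0.51, SE 0.193, edgeR adjusted p = 0.014), and it did not pass without CK replicate 2 or without CYSP replicate 1 (edgeR adjusted p = 0.0857 and 0.132) or by DESeq2 (adjusted p = 0.0667).

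The V0 sector has 6 genes in the list, of which 5 were tested. Of these 4 were higher (80%, against 38.2% of all tested genes) and 1 was lower (20%, against 37.8%). Atp6v0a1, the subunit a isoform of neurons and many other cells, was at 64.5, 67.9 and 63.3 CPM in CK and 299, 275 and 281 CPM in CYSP. It was the V-ATPase gene with the largest rise, without overlap (4.38-fold, SE of log2 0.041, edgeR adjusted p = 2.23e-58). Atp6v0e2 was low, at 3.55, 4.15 and 4.29 CPM against 10.6, 12.2 and 10.1 CPM, and all treated samples were above the controls (2.75-fold, SE of log2 0.156, edgeR adjusted p = 1.17e-13). Atp6v0c, the proteolipid of the rotor ring, had the highest V0 FPKM. Its CPM were 175, 184 and 176 in CK and 289, 284 and 291 in CYSP, without overlap (log2 fold change 0.69, SE 0.0343, edgeR adjusted p = 8.71e-31). Atp6v0d1, the widely expressed isoform of subunit d, which joins the rotor ring to the central stalk, rose by 0.57 on the log2 scale.

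Atp6v0d2, the other isoform of subunit d and a gene known from osteoclasts and macrophages, had 84, 93 and 82 counts in the CK samples and 0 in each CYSP sample. Against a floor of 3 counts over the group it was at least 78.9-fold lower in CYSP (edgeR adjusted p = 4.79e-22), and no treated sample held a read of it. Of the tested macrophage and osteoclast markers given above 76.5% and 71.4% were lower as well, against 37.8% of all tested genes. Mrc1 and Mmp9 were higher. The part of these markers was not tested. Atp6v0a4, the kidney isoform of subunit a, was at 0 in all 6 samples.

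Among the subunit a genes read here, the share of Atp6v0a1 rose on the FPKM scale. The a2 isoform, Atp6v0a2, is not among them, so the shares below do not cover all of subunit a. Tcirg1, the a3 isoform, which lies outside the symbol rule, was at 44.9 ± 2.55 CPM in CK and 44.7 ± 3.34 CPM in CYSP (SD, n = 3 each; edgeR adjusted p = 0.917), with overlapping groups. Of the summed FPKM of Atp6v0a1, Tcirg1 and Atp6v0a4, Atp6v0a1 made up 50.3, 48.6 and 47.1% in the CK samples and 82.1, 80.4 and 79.6% in the CYSP samples. The groups did not overlap. For subunits B, C, E and G, 1 isoform (Atp6v1b2, Atp6v1c1, Atp6v1e1 and Atp6v1g1) made up a mean of 97.5 to 100% in both groups.

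The V1 sector has 14 symbols in the list, of which 10 were tested, 9 higher, 0 lower and 1 that did not pass. That is 90% higher and 0% lower, against 38.2% and 37.8% of all tested genes. The median log2 fold change was 0.75. Atp6v1a, the catalytic subunit that hydrolyses ATP, was at 141, 140 and 146 CPM in CK and 405, 404 and 414 CPM in CYSP, with no overlap (2.87-fold, SE of log2 0.0336, edgeR adjusted p = 3.46e-54). Atp6v1e1, a subunit of the peripheral stalk, was at 61.6, 67.0 and 59.9 CPM against 172, 170 and 177 CPM (2.76-fold, SE of log2 0.0447, edgeR adjusted p = 1.57e-44). Atp6v1d, of the central rotor, had the highest mean FPKM of the sector and was at 77.9, 83.7 and 79.8 CPM against 190, 185 and 185 CPM (2.32-fold, SE of log2 0.0416, edgeR adjusted p = 3.37e-41). In all 3 genes every treated sample was higher.

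The other V1 subunits moved less. Atp6v1b2, the non-catalytic partner of subunit A, Atp6v1g1, of the peripheral stalk, and Atp6v1c1, which takes part in the joining of V1 to V0, rose by log2 fold changes of 0.84, 0.77 and 0.72. Atp6v1h, which also takes part in regulating that joining, rose by 0.31. Atp6v1f was at 7.05, 6.09 and 6.34 CPM and at 9.05, 8.04 and 7.65 CPM, close but not overlapping (log2 fold change 0.34, SE 0.149, edgeR adjusted p = 0.0319). It did not pass without CK replicate 2, without CK replicate 3 or without CYSP replicate 1 (edgeR adjusted p = 0.0968, 0.0783 and 0.145), nor with scaling by library size alone (0.105) or by DESeq2 (0.106). Atp6v1fnb, which rose by 0.68, is named Spmip1 in RefSeq, is the neighbour of Atp6v1f and is no pump subunit. Without it 8 of 9 tested V1 genes were higher, with a median of 0.77. Its mean was 42.3 CPM in CK and 67.6 CPM in CYSP, well above that of Atp6v1f. Whether reads of these neighbours were assigned to the right row was not tested, so the level and change of Atp6v1f are uncertain.

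Isoforms of narrow tissue range stayed at the edge of detection. Atp6v1c2 was at 0.733, 0.942 and 1.21 CPM and at 1.64, 0.743 and 2.05 CPM, with overlapping groups (edgeR adjusted p = 0.129), and it passed without CYSP replicate 2 (edgeR adjusted p = 0.0339). Atp6v1b1, the kidney and inner ear isoform of subunit B, had 3, 0 and 0 counts in CK and 5, 7 and 14 in CYSP, a ratio of 9.48 per unit of depth (95% Clopper-Pearson interval 2.90 to 48.9, counting error only), with no test. Atp6v1e2 had 0, 1 and 4 counts in CK and 0 in CYSP, Atp6v1g2 had 3, 7 and 3 counts against 4, 7 and 2, and Atp6v1g3 was at 0 throughout.

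**Figure D4:**
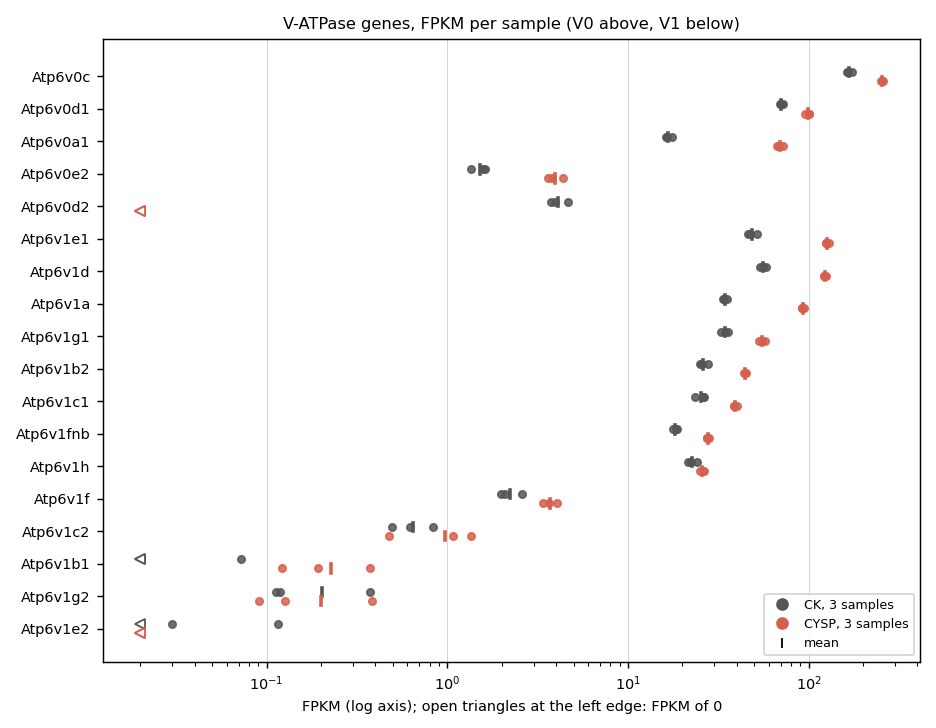
FPKM per sample (x axis, log scale) of the V-ATPase genes with any count, with CK in grey, CYSP in red, open triangles at FPKM of 0 and a bar at the mean where all 3 samples are above 0. Most genes shifted to the right in CYSP, Atp6v0a1 farthest among those above 10 FPKM, and Atp6v0d2 was at 0 in all 3 CYSP samples.

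Other genes of the pathway were read from the same fit, in which 38.2% of all tested genes were higher and 37.8% were lower. Of 29 tested further hydrolases and cofactors 24 were higher (82.8%), 3 were lower (10.3%) and 2 did not pass. Their median log2 fold change was 0.59. The list also holds Gba2, a glucosylceramidase that is not lysosomal, which rose by 0.52 on the log2 scale. Fuca1, alpha-fucosidase, rose by 2.00 and the cobalamin carrier Tcn2 by 1.68 on the log2 scale. Galc, galactosylceramidase, fell by 0.69 on the log2 scale and Acp5, the tartrate-resistant acid phosphatase of osteoclasts, by 0.55. The list of other lysosomal membrane proteins was more mixed, with 12 of 23 higher (52.2%) and 6 lower (26.1%) and a median of 0.34. Counted there are the tetraspanins Cd9, Cd81 and Cd82, which are not confined to lysosomes and were all higher. The tetraspanin Cd9 rose by 2.53 and Laptm4b by 1.73, and 2 genes also on the macrophage list, Laptm5 and Cd68, fell by 1.28 and 0.86 on the log2 scale.

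Of 13 V-ATPase partners 9 were higher (69.2%, against 38.2% of all tested genes), 1 was lower (7.69%, against 37.8%) and 3 did not pass. The accessory subunits Atp6ap1 and Atp6ap2 rose by 1.21 and 0.76 on the log2 scale, and of the related TLDc-domain proteins Oxr1 and Ncoa7 the first rose by 1.71 and the second fell by 0.58. Of 18 genes of mannose 6-phosphate tagging and sorting 11 were higher (61.1%), 1 was lower (5.56%) and 6 did not pass. Igf2r, the large mannose 6-phosphate receptor, was at 638, 622 and 619 CPM in CK and 2103, 2052 and 2088 CPM in CYSP, without overlap (log2 fold change 1.73, edgeR adjusted p = 2.92e-67). The small receptor M6pr rose by 0.66 and Gnptab, whose product starts the tag, by 1.40. Ap1m1, of the AP-1 adaptor that buds carriers from the Golgi, fell by 0.62 on the log2 scale.

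Of 5 tested genes on the inhibitor list 1 was higher (20%, against 38.2% of all tested genes), 2 were lower (40%, against 37.8%) and 2 did not pass. Cst3, cystatin C, the secreted inhibitor of cysteine cathepsins, was at 77.3 ± 7.38 CPM in CK and 72.5 ± 7.35 CPM in CYSP (SD, n = 3 each; edgeR adjusted p = 0.269). It passed as lower without CK replicate 1 and without CYSP replicate 3 (edgeR adjusted p = 0.0106 and 0.0158), and with scaling by library size alone (0.0391). Lxn fell by 3.24 and Timp3 by 4.50 on the log2 scale; the first inhibits carboxypeptidases and the second metalloproteinases, so neither is a cathepsin inhibitor. The gene that was higher, Cst6, had 3 counts over CK and 44 over CYSP.

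The MiT/TFE genes moved apart. Of 21 tested genes for these factors and for mTORC1 at the lysosome 11 were higher (52.4%), 7 were lower (33.3%) and 3 did not pass. Among all tested genes 38.2% were higher and 37.8% were lower. Mitf was at 9.59, 8.29 and 9.12 CPM in CK and 14.7, 16.6 and 18.6 CPM in CYSP, higher without overlap (log2 fold change 0.88, SE 0.117, edgeR adjusted p = 2.97e-10). Tfeb was at 7.79, 5.09 and 6.46 CPM against 4.56, 3.24 and 3.76 CPM, lower in every treated sample (log2 fold change -0.74, SE 0.186, edgeR adjusted p = 2.76e-04). Tfe3 fell by 0.39 and Tfec, a factor of macrophages, by 3.03 on the log2 scale. These are levels of mRNA, while the activity of these factors is largely set by where the protein resides, which was not measured. Rragd, a Rag GTPase that recruits mTORC1 to lysosomes, rose by 3.52 from 0.817 ± 0.0814 to 9.46 ± 1.81 CPM (SD, n = 3 each), and Mlst8, a subunit of mTORC1, fell by 0.92 on the log2 scale. Of 23 genes of lysosome fusion and positioning 13 were higher, 3 were lower and 7 did not pass; Kxd1 and Plekhm1 rose by 0.92 and 0.84, and Borcs7 and Vamp8 fell by 0.93 and 0.91 on the log2 scale.

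**Figure D5:**
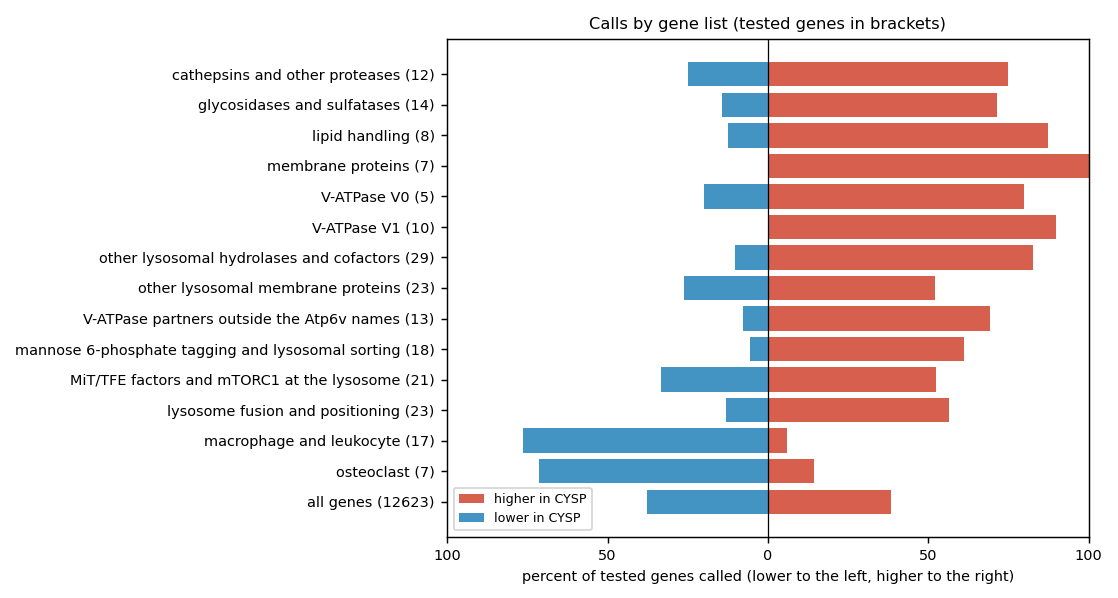
Percent of tested genes called lower (left of 0) and higher (right of 0) in CYSP for each role and pathway list, the macrophage and osteoclast marker lists and all genes, with the number tested in brackets. Roles and the further hydrolases have long bars to the right, the marker lists have long bars to the left, and all genes have 38.2% higher and 37.8% lower.

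The number of calls rests on a small spread between samples. The common biological coefficient of variation was 0.0393, and the median coefficient of variation of the 51 lysosomal genes at 10 CPM or more was 3.67% in CK and 2.74% in CYSP, against 4.72% and 4.64% over 8535 genes. With an assumed coefficient of 0.2 in its place, 31 of the 56 genes were higher and 3 lower, against 24.6% and 22.2% of all tested genes; with 0.4, 13 were higher and 3 lower, against 11.9% and 9.58%. The 16 genes called with 0.4 were Ctsc, Ctsl, Ctsf, Manba, Gla, Gaa, Man2b1, Mcoln1, Entpd4, Atp6v0a1, Atp6v0e2, Atp6v1a and Atp6v1e1, which were higher, and Ctss, Ctsk and Atp6v0d2, which were lower. In RefSeq, 24 of the 60 genes found there overlap another gene, and whether counting used strand is not stated in the sources, so their counts may include reads of the partner.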

How the data were processed

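RNA of 3 CK and 3 CYSP samples was measured. The deposited table gives whole-number counts and FPKM per gene and sample, and the authors' own mean FPKM, log2 fold changes and p-values, which were not used. The submitters' processing notes name RSEM, StringTie 1.3.1, HISAT2 and fastp 0.18.0 but not what each did. A genome build and an annotation for the counts are not stated in the sources.

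Counts were fitted in R 4.3.3 with edgeR 4.0.16 (filterByExpr on the groups, TMM scaling, robust quasi-likelihood F test, Benjamini-Hochberg adjustment over all 12623 genes tested, threshold 0.05), with both groups in a single fit and no block. CPM are TMM-scaled. FPKM served to compare levels between genes. For a symbol with several rows the row with the most counts was taken: Atp6v1f had a further row, at 0. The members and gene lists were chosen with earlier results of these data known. Named with the value in every sample were, in each role, the gene with the highest mean FPKM and up to 3 genes in each direction with the largest change among called genes at 1 CPM or more, and a fixed set of pathway genes was always named, of which 1 is not reported here. Genes given with every sample's value beyond that rule (Lamp1, Cln3, Sgsh, Gusb, Atp6v1f and the low isoforms) were chosen after their values were seen, as was Cst6. No test of a list was made. Counting intervals and floors cover counting error only. Replicates of a group differed by more than counting noise (chi-square per gene 2.09 to 2.77 over 6 pairs), so none was counted as a repeat. The fit was also run on simulated counts for the 12623 genes, with 50 genes changed at each fold and all others unchanged. It recovered 40% at 1.2-fold, 74% at 1.5-fold, 92% at 2-fold and 100% at 4-fold, and called 0.113% of unchanged genes. In the data 76.1% of tested genes were called, a setting the simulation did not cover, so these rates may not hold there. Alternatives used DESeq2 1.42.0, limma 3.58.1 (voom, and trend on log2(FPKM + 1) and log2(FPKM + 0.1)), other scalings and filters, and fits that left out each sample.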

Additional observations from a re-analysis of the deposited data

How the results depend on the processing

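Under 16 alternatives in test, scaling, filter, unit and samples, 50 of the 53 called lysosomal genes were called in the same direction throughout. The exceptions were Psap, Cln3 and Atp6v1f. Counts of lysosomal genes ran from 44 to 47 higher, with 7 lower, when each sample was left out; those of all genes ran from 4706 to 4751 higher and from 4621 to 4687 lower. With the replicate number as a block, 46 were higher and 7 lower, and 4773 and 4712 of all genes. The deviations of same-numbered samples correlated at -0.0161, 0.0142 and -0.00285 over all tested genes. Counting noise of genes with few counts enters these values, and the labels do not say whether numbers mark pairs. The values therefore cannot exclude pairing. Scaling by library size alone moved the median of all genes to -0.08.

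Harder criteria moved the counts, since they ask for larger changes. Tested against a log2 fold change of 1 (edgeR's glmTreat), 16 lysosomal genes were higher and 3 lower, and 1504 and 1217 of all genes; by role 4 proteases, 4 glycosidases and sulfatases, 1 lipid-handling gene, 2 membrane proteins, 2 V0 and 3 V1 genes were higher, and 0 glycosidases or lipid-handling genes were lower. With an assumed coefficient of variation of 0.2, 31 were higher and 3 lower, and 3102 and 2801 of all genes, with 5 glycosidases and sulfatases, 4 lipid-handling genes and 4 membrane proteins higher and 0 of the first and second lower. With 0.4, 13 were higher and 3 lower, and 1496 and 1209 of all genes, with 3 proteases, 4 glycosidases and sulfatases, 0 lipid-handling genes, 2 membrane proteins, 2 V0 and 2 V1 genes higher and 0 glycosidases or lipid-handling genes lower. Depth limits the low isoforms: 3 counts are about 0.2 CPM.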

Other observations

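Genes that the naming rule left out also bear on the pump. The V0 subunits spelled in capitals in the table, ATP6V0B and ATP6V0E1, were at 26.8 ± 1.61 and 25.1 ± 1.2 CPM in CK and at 56.0 ± 2.77 and 51.8 ± 1.01 CPM in CYSP (SD, n = 3 each). Both were higher in every treated sample, 2.09-fold and 2.07-fold (edgeR adjusted p = 1.35e-24 and 8.92e-24). Of cathepsins outside the list, Ctso rose 1.99-fold, from 5.88 ± 1.32 to 11.7 ± 1.13 CPM, again without overlap (edgeR adjusted p = 4.38e-09). Another 7 cathepsin symbols were at 0 in all 6 samples: Ctsg, of neutrophil granules, and Ctsj, Ctsll3, Ctsm, Ctsq, Ctsql2 and Ctsr, of the rodent placental cathepsin family. Among genes that the deposited table assigns to the KEGG Lysosome term and that are not on the list of 61, 45 of 72 tested were higher, 13 were lower and 14 did not pass. That is 62.5% higher and 18.1% lower, against 38.2% and 37.8% of all tested genes. The one with the largest rise was Slc11a2, the divalent metal transporter that moves iron out of endosomes, with a log2 fold change of 2.36 (SE 0.0401, edgeR adjusted p = 7.66e-62).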
